A study of Mus musculus with 6 samples.

Results

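The p53 target and apoptosis genes are a list of 34 mouse genes, chosen by name, that p53 or the cell death machinery uses to answer damage. Of the 34, 31 were the only symbol of a probe set on the array, each on 1 probe set, out of 19938 genes measured in all. The other 3, Trp53 itself, Cdkn1a and Bax, were not analysed here; the probe set that carries Cdkn1a also carries a second symbol. The question asked of these genes was whether lowering p/CIP brings a damage response or a death programme with it.

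The cells were mouse embryonic stem cells of the line E14. They received siRNA 1 against p/CIP, siRNA 2 against p/CIP, or a non-specific siRNA pool as the control, and 2 arrays were run for each treatment. p/CIP is a coactivator of nuclear receptors encoded by Ncoa3. No label names a genetic change to the cells or a dose or time for the siRNAs. Nothing in the labels tells whether the 2 arrays of a treatment were separate cultures, so each p-value rests on a spread that could be purely technical.

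p53, the protein of Trp53, is a transcription factor that is made and destroyed continuously until damage stabilises it. Stabilised p53 switches on genes that stop the cell cycle, repair DNA or promote death, and also Mdm2, whose protein returns p53 to degradation. The BCL2 family governs whether cytochrome c leaves the mitochondrion for the apoptosome, in which APAF1 activates caspase 9. In mouse embryonic stem cells p53 is also known to lower Nanog and so to favour differentiation after damage.

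The sequence that ties several of these genes to p53 is a pair of half-sites of 10 bases, the p53 consensus response element. It was searched in RefSeq promoter windows of build GRCm38.p6, from 250 bases before to 50 bases after each start, allowing at most 1 base between the half-sites and 1 departure from the consensus in all. The consensus is its own reverse complement, so both strands were covered. Such a site lay in 57 of the 27025 genes with a window (0.211%) and in 5 of the 30 members with one (16.7%). Of these 5, Ccng1, Gtse1 and Polk were analysed on the arrays, and Bax and Cdkn1a were not. The probe set that carries Cdkn1a was left out because it also carries a second symbol. The sites of the 3 measured genes are shown, since the levels of these genes are known here. Each is a match to the consensus with 1 departure. Capitals mark the paired half-sites, in Polk with the 1 base between them, and lower case the flanks, each read 5′ to 3′ along the gene's strand.
Ccng1 (chr11:40755442-40755501, minus strand): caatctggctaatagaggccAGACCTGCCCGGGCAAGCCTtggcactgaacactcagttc
Gtse1 (chr15:85859925-85859984, plus strand): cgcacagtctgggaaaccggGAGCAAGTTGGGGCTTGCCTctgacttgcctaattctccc
Polk (chr13:96519378-96519437, minus strand): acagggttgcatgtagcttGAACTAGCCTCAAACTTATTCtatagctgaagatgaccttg
The first base of the site lies 195 bases before the start in Ccng1 and 231 in Polk, while in Gtse1 it lies 1 base before it. A match describes these letters only and does not show that p53 binds there.

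None of the 31 genes passed the test with either siRNA or with both together. Values are on the log2 scale, on which a difference of 1 is a doubling. A call meant a limma adjusted p under 0.05 over all 19938 genes. For both siRNAs against control, 0 of 31 members were called, against 0.0702% of all genes. With siRNA 1 alone 0 were called, against 0.0702% of all genes, and with siRNA 2 alone 0 were called, where 0% of all genes were. At an unadjusted p under 0.05 there were 0 members higher and 3 lower for both siRNAs, which is 9.68% of the list beside 8.72% of all genes. Those 3 were Gadd45a, Sesn1 and Bak1, and the count was 0 without control replicate 1. All 31 differences were smaller than 1.5-fold for both siRNAs, and they ran from -0.38 for Sesn1 to 0.20 for Casp9. Their median was 0.023, beside a median of 0.0065 over all genes.

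The intervals give the precision of the difference for each measured gene on these arrays. For both siRNAs the 95% interval of the difference lay wholly inside 1.5-fold for 30 of the 31 members, and it did so for 95.3% of all genes. Sesn1 was the exception, with an interval from -0.72 to -0.04. The highest upper limit in the list was 0.45, for Gadd45b. These are intervals of single genes, not adjusted for their number. Like the p-values, they rest on a spread that could be purely technical, so they may be too narrow for separate cultures. Trp53, Cdkn1a and Bax have no interval here. RNA from the whole culture was measured, so fewer cells expressing a gene and less RNA per cell cannot be told apart.

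**Figure D1:**
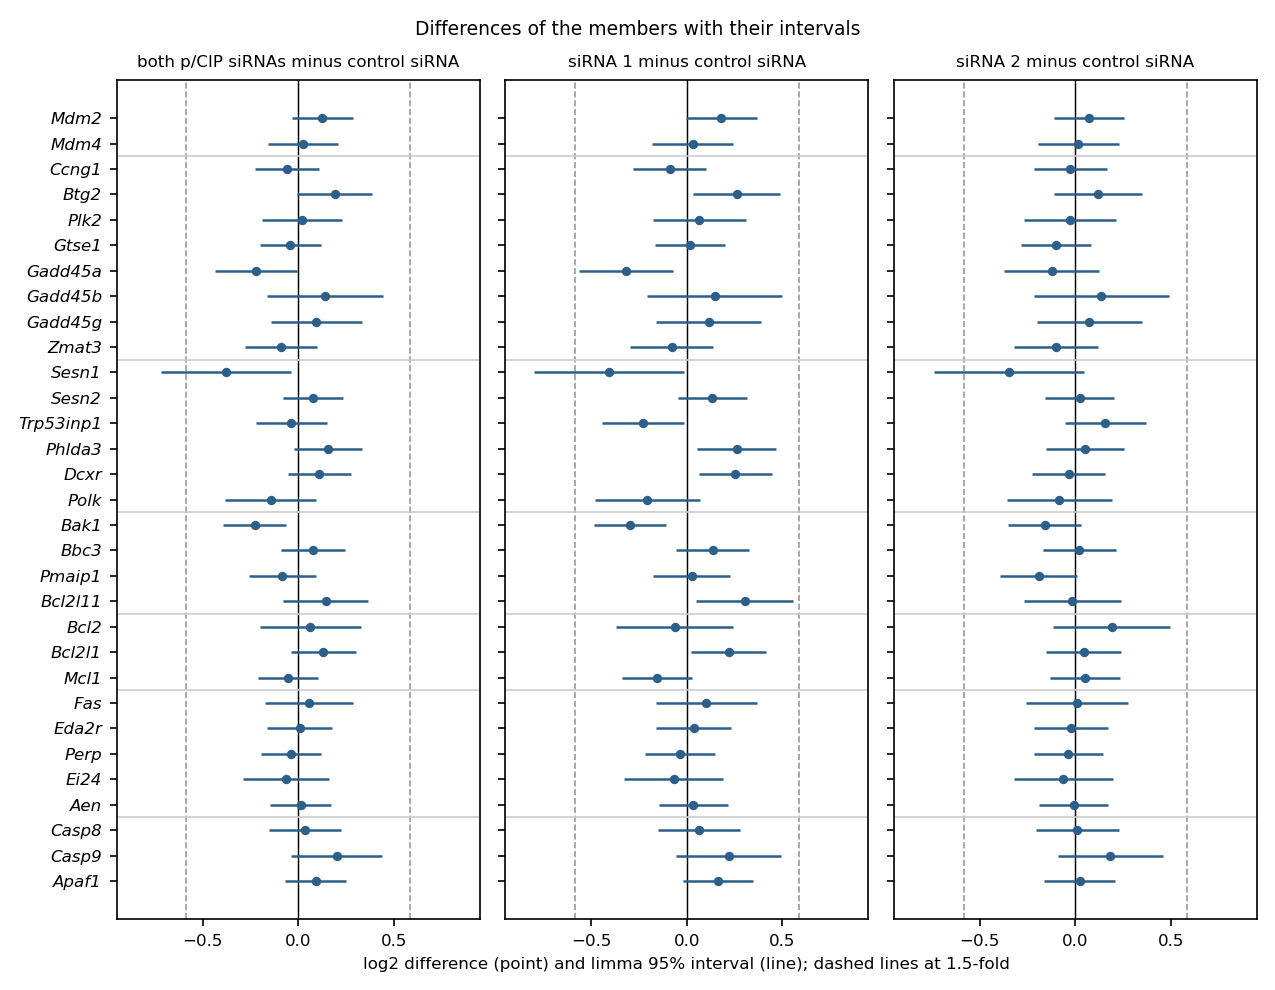
Differences of the 31 measured genes on the log2 scale (horizontal axis) with limma 95% intervals, for both p/CIP siRNAs, siRNA 1 and siRNA 2, each minus control siRNA; grey rules separate the roles and dashed lines mark 1.5-fold. Only the interval of Sesn1 reaches past 1.5-fold in any of the 3 panels.

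The knockdown itself was clear on the same arrays. Ncoa3 read 10.71 and 10.93 with siRNA 1 and 10.71 and 10.92 with siRNA 2, against 12.33 and 12.28 with control siRNA. It fell 2.81-fold over both siRNAs (log2 difference -1.49, standard error 0.0964, limma adjusted p = 0.0287). Taken alone, siRNA 1 passed (-1.49, adjusted p = 0.0452), while siRNA 2, with the same difference of -1.49, did not (adjusted p = 0.0742), so the test with siRNA 2 alone did not call even the targeted gene. The direction held without any 1 array, but the adjusted p was above 0.05 when either control array or either siRNA 2 array was left out, at most 0.62. The stem cell markers were present, and 9 of 10 had values below control (median -0.13). Pou5f1 read 12.68 to 12.82 on the knockdown arrays and 12.80 to 12.91 on the control arrays. Nanog read 12.70 and 12.55 with siRNA 1 and 12.71 and 12.60 with siRNA 2, against 13.05 and 12.89 with control siRNA. All 4 of its knockdown arrays were below both controls (log2 difference -0.33, standard error 0.0855, adjusted p = 0.333). At an unadjusted p under 0.05 there were 4 stem cell markers, all lower (40%, beside 8.72% of all genes): Nanog, Esrrb (-0.50), Zfp42 (-0.39) and Fgf4 (-0.33). With the replicate block, Esrrb was called lower for both siRNAs (adjusted p = 0.0386) and for siRNA 1 alone (0.0384), and Zfp42 for siRNA 1 alone (-0.47, 0.0421). The mean over 10 stem cell markers was 12.29 to 12.43 on the knockdown arrays and 12.51 to 12.60 on the control arrays. Over 10 fibroblast markers it was 6.58 to 6.77 on the knockdown arrays and 6.59 to 6.66 on the controls. The 8 extraembryonic endoderm markers averaged 7.96 and 8.46 with siRNA 1, 7.96 and 8.15 with siRNA 2, and 7.84 and 8.15 with control siRNA. The 8 trophoblast markers averaged 9.35 to 9.69 on the knockdown arrays and 9.37 to 9.49 on the controls. For both siRNAs, 7 fibroblast, 7 endoderm and 7 trophoblast markers had values above control (medians 0.065, 0.17 and 0.12). At an unadjusted p under 0.05 there were 1, 0 and 1 of them, all higher. None of these marker genes was called without the replicate number as a block. The part of such cells in the values of the p53 genes was not tested.

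Both measured regulators of p53 sat close to control. Mdm2, the ubiquitin ligase that is at once a target and an inhibitor of p53, read 11.76 and 11.68 with siRNA 1 and 11.59 and 11.63 with siRNA 2, against 11.54 on each control array. All 4 knockdown arrays were thus above both controls, but by 1.09-fold on average (log2 difference 0.13, standard error 0.0674, adjusted p = 0.646). Mdm4, a relative that blocks p53's activation domain, read 10.46 and 10.38 with siRNA 1 and 10.32 and 10.49 with siRNA 2, against 10.39 and 10.38 with control siRNA. Its arrays overlapped, and its interval ran from -0.16 to 0.21.

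Of the 8 measured genes of arrest and growth restraint, 4 had values above control and 4 below. Of the 8, 0 were called, where 0.0702% of all genes were. For 0 of them all knockdown arrays lay on one side of both controls, where 18.9% of all genes did. The siRNA 1 arrays alone did so for 4 of the 8, beside 43.4% of all genes. Ccng1 encodes cyclin G1 and has the consensus match printed above. It read 12.93 and 12.84 with siRNA 1 and 12.93 and 12.97 with siRNA 2, against 12.95 and 13.00 with control siRNA. The log2 difference was -0.06, with an interval from -0.22 to 0.11. Gtse1, a protein of dividing cells that restrains p53, read 12.03 and 12.01 with siRNA 1 and 11.88 and 11.92 with siRNA 2, against 12.04 and 11.97 with control siRNA. The values of the siRNA 2 arrays were lower than those of the others, and the difference over both siRNAs was -0.04 (adjusted p = 0.867). Zmat3, an RNA-binding zinc finger protein that p53 induces, differed by -0.09, and Plk2, a kinase that p53 induces, by 0.019.

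The 3 Gadd45 genes, growth arrest and DNA damage inducible genes, had values on both sides of control. Gadd45a, the p53 target among them, read 9.52 and 9.50 with siRNA 1 and 9.75 and 9.66 with siRNA 2, against 9.95 and 9.70 with control siRNA. Both siRNA 1 arrays lay below both controls, while siRNA 2 overlapped them. The log2 difference over both siRNAs was -0.22 (standard error 0.09, adjusted p = 0.559), and it was -0.09 without control replicate 1 and -0.35 without control replicate 2. Gadd45b read 10.17 and 10.57 with siRNA 1 and 10.24 and 10.47 with siRNA 2, against 10.16 and 10.28 with control siRNA. Its replicate 2 array was the higher one under every treatment, as was that of Gadd45g, whose difference was 0.09. Btg2, an antiproliferative p53 target, read 10.50 and 10.62 with siRNA 1 and 10.33 and 10.50 with siRNA 2, against 10.26 and 10.33 with control siRNA. The siRNA 1 arrays stood above the controls, and over both siRNAs the difference was 0.19 (standard error 0.083, adjusted p = 0.581).

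Among 6 genes of stress metabolism and damage tolerance, 3 had values above control and 3 below. Sesn1, a sestrin that limits mTORC1 under stress, had the most negative difference of the list. It read 8.90 and 8.52 with siRNA 1 and 8.81 and 8.72 with siRNA 2, against 9.30 and 8.93 with control siRNA. All 4 knockdown arrays were below both controls, although siRNA 1 replicate 1, at 8.90, was close to control replicate 2, at 8.93. The fold was 1.3 (log2 difference -0.38, standard error 0.143, adjusted p = 0.529), and the value was -0.19 without control replicate 1. The second sestrin, Sesn2, which is also induced through ATF4, read 11.17 and 11.20 with siRNA 1 and 11.10 and 11.05 with siRNA 2, against 11.04 and 11.07 with control siRNA. Its difference was 0.08, opposite in sign to that of Sesn1, and neither passed the test.

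Phlda3, a p53 target that holds back AKT, read 11.25 and 11.39 with siRNA 1 and 11.07 and 11.16 with siRNA 2, against 11.06 on each control array. The knockdown arrays were all above control, the siRNA 2 arrays barely so, and the difference was 0.16 (standard error 0.0746, adjusted p = 0.61). Polk, a DNA polymerase that copies past damaged bases, has the third printed match. It read 9.14 and 9.16 with siRNA 1 and 9.12 and 9.42 with siRNA 2, against 9.29 and 9.42 with control siRNA. The arrays overlapped, with a log2 difference of -0.14 and an interval from -0.38 to 0.09. None of the 3 measured genes with a match to the p53 consensus in the window was called. All 3 differences were below 0, as were those of 9502 of the 19938 genes, and that of Gtse1 was 0.018 with siRNA 1 alone and 0.0050 for both siRNAs after quantile normalization.

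**Figure D2:**
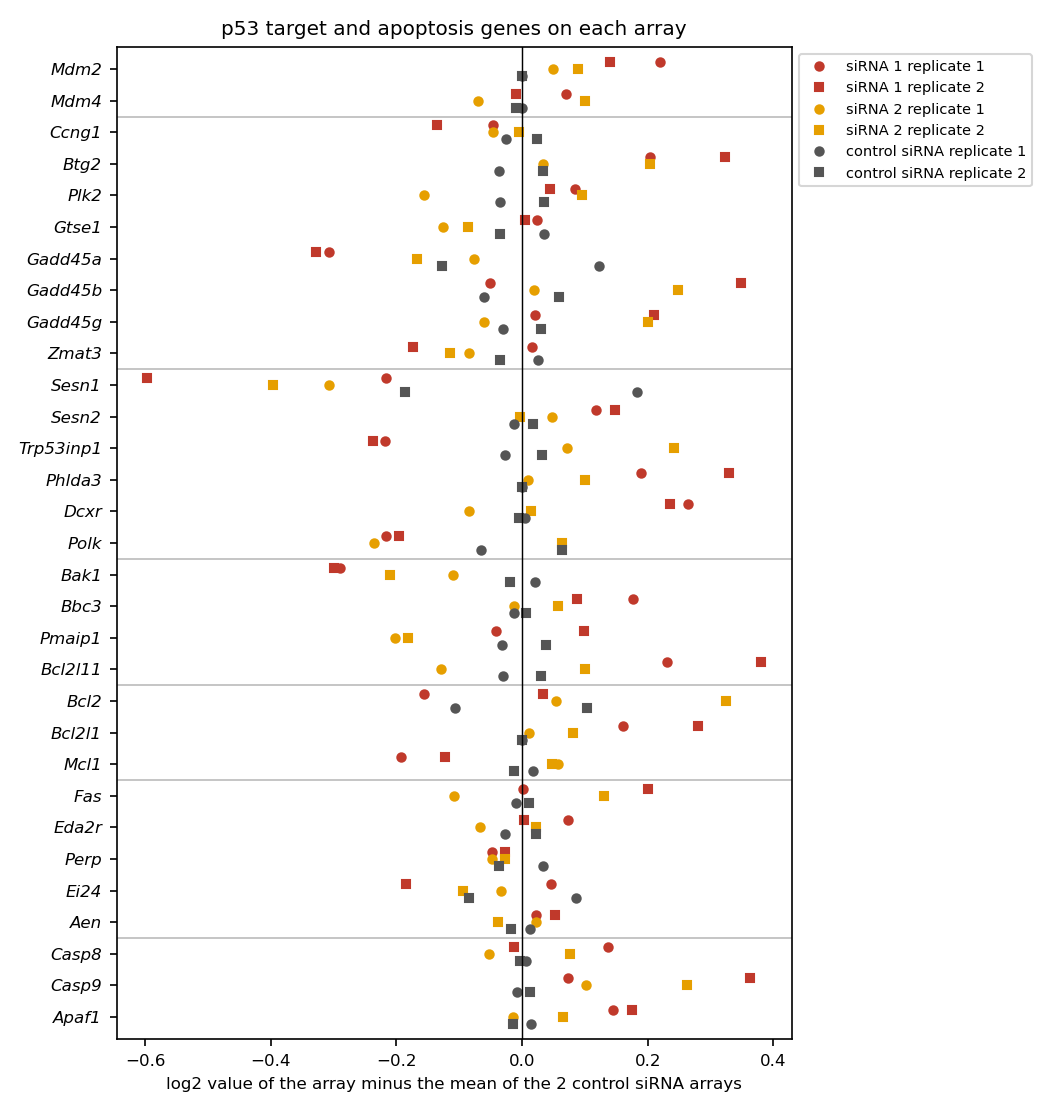
Each array's log2 value minus the mean of the 2 control siRNA arrays (horizontal axis), for the 31 measured genes grouped by role; red, siRNA 1; orange, siRNA 2; grey, control siRNA; circles, replicate 1; squares, replicate 2. Most knockdown points lie among or next to the control points, and the widest departure is that of Sesn1.

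Of the 4 measured death-promoting BCL2 genes, 2 had values above control and 2 below. Bak1, which forms pores in the outer mitochondrial membrane, had the smallest p of the list for both siRNAs. It read 10.58 and 10.57 with siRNA 1 and 10.76 and 10.66 with siRNA 2, against 10.89 and 10.85 with control siRNA. Every knockdown array was below both controls, and the siRNA 1 arrays were lowest. The log2 difference was -0.23 (1.17-fold, standard error 0.0689, unadjusted p = 0.0133 and adjusted p = 0.4 by limma), -0.22 within replicate 1 and -0.23 within replicate 2. Leaving out any 1 array kept it between -0.25 and -0.20.

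The 3 measured BH3-only genes, whose proteins set off the pore formers, showed no common direction. Bbc3, which encodes PUMA, read 9.06 and 8.97 with siRNA 1 and 8.87 and 8.94 with siRNA 2, against 8.87 and 8.89 with control siRNA. Its difference was 0.08, with an interval from -0.09 to 0.24. Pmaip1, which encodes NOXA, read 8.54 and 8.68 with siRNA 1 and 8.38 and 8.40 with siRNA 2, against 8.55 and 8.62 with control siRNA. There the siRNA 2 arrays stood below all others. Bcl2l11, which encodes BIM, read 10.24 and 10.39 with siRNA 1 and 9.88 and 10.11 with siRNA 2, against 9.98 and 10.04 with control siRNA. It was the siRNA 1 arrays that stood apart, above the rest, and the differences over both siRNAs were -0.08 for Pmaip1 (adjusted p = 0.762) and 0.14 for Bcl2l11 (adjusted p = 0.688).

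Of the protective relatives, Bcl2l1, which encodes BCL-XL, read 9.87 and 9.99 with siRNA 1 and 9.72 and 9.79 with siRNA 2, against 9.71 on each control array. All knockdown arrays were above control, by 0.13 on average (standard error 0.0714, adjusted p = 0.65). Bcl2 read 7.97 and 8.16 with siRNA 1 and 8.18 and 8.45 with siRNA 2, against 8.02 and 8.23 with control siRNA. Within each treatment its replicate 2 array exceeded replicate 1 by 0.19 to 0.26. Mcl1, a short-lived protector that binds BAK, read 11.54 and 11.61 with siRNA 1 and 11.79 and 11.78 with siRNA 2, against 11.75 and 11.72 with control siRNA. The siRNA 1 arrays lay below the controls and the siRNA 2 arrays just above them.

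The 5 genes of death receptors and other effectors were the flattest group, with log2 differences from -0.07 to 0.056. Arrays overlapped in all 5, while 18.9% of all genes had every knockdown array on one side of both controls. Perp, a membrane protein of p53-dependent death, read 11.39 and 11.41 with siRNA 1 and again with siRNA 2, against 11.47 and 11.40 with control siRNA. Aen, a nuclease that p53 induces, read 9.89 and 9.92 with siRNA 1 and 9.89 and 9.83 with siRNA 2, against 9.88 and 9.85 with control siRNA. Eda2r, a receptor of the TNF receptor family, read 10.41 to 10.55 on the knockdown arrays and 10.45 to 10.50 on the controls. Fas, the death receptor, read 5.28 to 5.59 on the knockdown arrays and 5.38 and 5.40 on the controls. It is the only member whose mean lies below the median gene level of 7.81, and since no background values were used, it is not known whether its signal exceeded background. Ei24 differed by -0.07 (adjusted p = 0.851).

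All 3 genes of the caspase cascade had values above control, by small amounts. Casp9, the initiator caspase of the apoptosome, read 8.46 and 8.75 with siRNA 1 and 8.49 and 8.65 with siRNA 2, against 8.38 and 8.40 with control siRNA. Its 4 knockdown arrays were above both controls, by 1.15-fold (log2 difference 0.20, standard error 0.1, adjusted p = 0.62). The gap was 0.097 within replicate 1 and 0.31 within replicate 2. Apaf1, the scaffold of the apoptosome, read 10.30 and 10.33 with siRNA 1 and 10.14 and 10.22 with siRNA 2, against 10.17 and 10.14 with control siRNA. The siRNA 1 arrays were the high ones, and the difference was 0.09 (adjusted p = 0.72). Casp8, the initiator caspase of death receptors, differed by 0.036, with overlapping arrays.

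In all, 6 of the 31 members (19.4%) had every knockdown array on one side of both controls, where 18.9% of all genes did. Mdm2, Phlda3, Bcl2l1 and Casp9 were above, and Sesn1 and Bak1 below. The list's share was thus close to that of the array as a whole. With the replicate number as a block, 0 members were called for both siRNAs, against 0.341% of all genes, and the lowest adjusted p in the list was 0.115, for Sesn1.

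Each siRNA was also compared with control alone. With siRNA 1, 9 of 31 members (29%) had an unadjusted p under 0.05, where 12.1% of all genes did: Btg2, Phlda3, Dcxr, Bcl2l11 and Bcl2l1 were higher, and Gadd45a, Sesn1, Trp53inp1 and Bak1 lower. With siRNA 2 there were 0 such members, where 5.25% of all genes passed. Both comparisons use the same control arrays. The count of 9 was 1 without control replicate 1, 3 without control replicate 2 and 4 without siRNA 1 replicate 2. Its smallest adjusted p was 0.265, that of Bak1 (-0.30), and 0.0852 with the replicate block, with which 1.21% of all genes and 0 members were called. The 2 siRNA 1 arrays lay on one side of both controls for 19 members (61.3%, and 43.4% of all genes), and the 2 siRNA 2 arrays for 11 members (35.5%, and 35.8% of all genes). Of the 31 members, only 1 lies below the median gene level of 7.81. Their median standard deviation within groups was 0.0748, beside 0.1 over all genes. All genes are thus not a matched baseline for these shares, here or between the siRNAs, and the part of level and spread in them was not tested.

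The direct comparison of siRNA 2 with siRNA 1 called 0 members, where 0% of all genes were called. At an unadjusted p under 0.05 there were 6 members (19.4%), beside 6.9% of all genes, and 15 members (48.4%) had siRNA 2 arrays wholly above or below the siRNA 1 arrays, beside 35.1% of all genes. The count of 6 was 2 without siRNA 2 replicate 1, and 3 without either control array or siRNA 2 replicate 2. Trp53inp1, a p53-induced protein of autophagy and death, gave the smallest p. It read 12.31 and 12.48 with siRNA 2, against 12.02 and 12.00 with siRNA 1, and 12.21 and 12.27 with control siRNA. The siRNA 2 arrays were above the controls and the siRNA 1 arrays below them, with a difference between the siRNAs of 0.39 (95% interval 0.17 to 0.60, adjusted p = 0.481).

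Dcxr, a carbonyl reductase, read 9.91 and 10.01 with siRNA 2, against 10.26 and 10.23 with siRNA 1, and 10 and 9.99 with control siRNA. Here siRNA 2 stayed with the controls while siRNA 1 stood above them, and siRNA 2 minus siRNA 1 was -0.29 (interval -0.48 to -0.10, adjusted p = 0.574). The other 4 of the 6 were Bcl2l11 (-0.32), Pmaip1 (-0.22), Phlda3 (-0.21) and Mcl1 (0.21), with adjusted p from 0.693 to 0.719. Of the BCL2 family, siRNA 2 arrays were wholly below siRNA 1 arrays for Bbc3, Pmaip1, Bcl2l11 and Bcl2l1. They were wholly above them for Bak1, Bcl2 and Mcl1. All 7 thus had the arrays of the siRNAs apart, beside 35.1% of all genes. Of the 7, 0 were called, where 0% of all genes were.

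**Figure D3:**
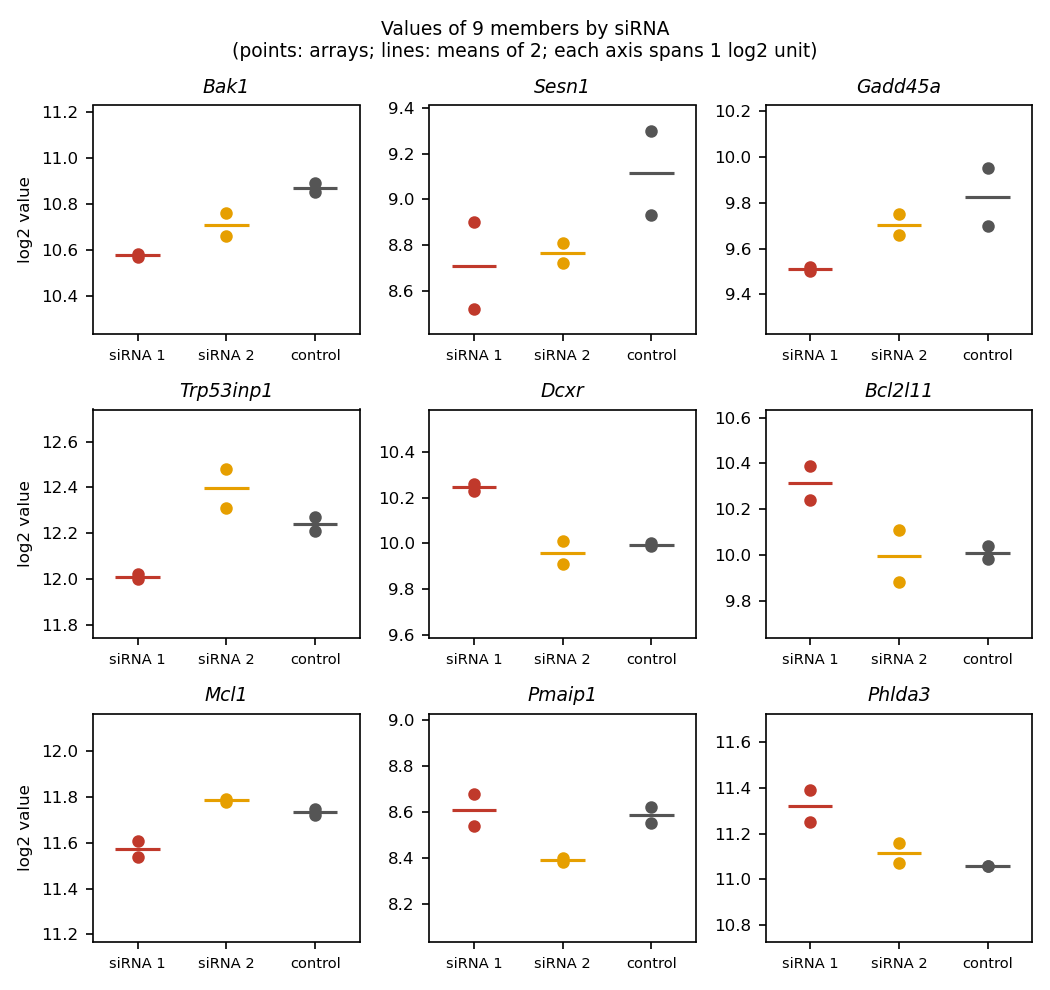
Log2 values (vertical axis, 1 log2 unit in each panel) of the 9 members with an unadjusted p under 0.05 for both siRNAs against control or between the siRNAs; points are single arrays and lines the means of 2. The means of Bak1, Sesn1 and Gadd45a are lowest with siRNA 1, and the arrays of Trp53inp1 and Mcl1 lie below control with siRNA 1 and above it with siRNA 2.

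The rest of the pathway was followed in 3 further lists, for both siRNAs against control. Of 39 other p53 targets, 26 had values above control and 13 below (median 0.065), with 0 called. At an unadjusted p under 0.05 there were 5 higher and 1 lower (15.4%, beside 8.72% of all genes). All knockdown arrays lay above both controls for 8 and below both for 2 (25.6%, beside 18.9% of all genes). The 3 of smallest p were Tap1, a peptide transporter of antigen presentation (0.29, adjusted p = 0.318), Ptpn14, a phosphatase that restrains YAP (0.35, adjusted p = 0.389), and Ddit4, an inhibitor of mTORC1 (0.32, adjusted p = 0.399). Ptpn14 read 11.25 and 11.42 with siRNA 1 and 11.05 and 11.26 with siRNA 2, against 10.78 and 11.01 with control siRNA. For siRNA 1 alone the difference was 0.44 (adjusted p = 0.27), which passed only with the replicate number as a block (0.0473).

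Among 28 DNA damage sensors and modifiers of p53, 22 had values below control and 6 above (median -0.085), with 0 called. At an unadjusted p under 0.05 there were 2 higher and 5 lower (25%, beside 8.72% of all genes), and 39.3% had all knockdown arrays on one side of both controls, beside 18.9% of all genes. Rad1, a subunit of the clamp that loads at damaged DNA, read 9.29 and 9.07 with siRNA 1 and 9.58 and 9.55 with siRNA 2, against 9.94 and 9.79 with control siRNA. Its difference was -0.49 (standard error 0.0896, adjusted p = 0.186), and with siRNA 1 alone -0.68 (adjusted p = 0.115, and 0.029 with the replicate block). Sirt1, a deacetylase of p53, was at -0.44 (adjusted p = 0.328), and with siRNA 1 alone at -0.55 (adjusted p = 0.222, and 0.0439 with the block). Brca2, a protein of homologous recombination, was at -0.33 (adjusted p = 0.289). Of 37 other apoptosis genes, 21 had values above control and 16 below (median 0.024), with 0 called. At an unadjusted p under 0.05 there were 2 higher and 0 lower (5.41%, beside 8.72% of all genes). All knockdown arrays lay on one side of both controls for 13.5%, beside 18.9% of all genes. Among these apoptosis genes the smallest p was that of Bag3, a cochaperone that protects from death (0.32, adjusted p = 0.377). Next were the TNF receptor gene Tnfrsf1a (0.38, adjusted p = 0.442) and the executioner caspase gene Casp6 (0.19, adjusted p = 0.581).

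**Figure D4:**
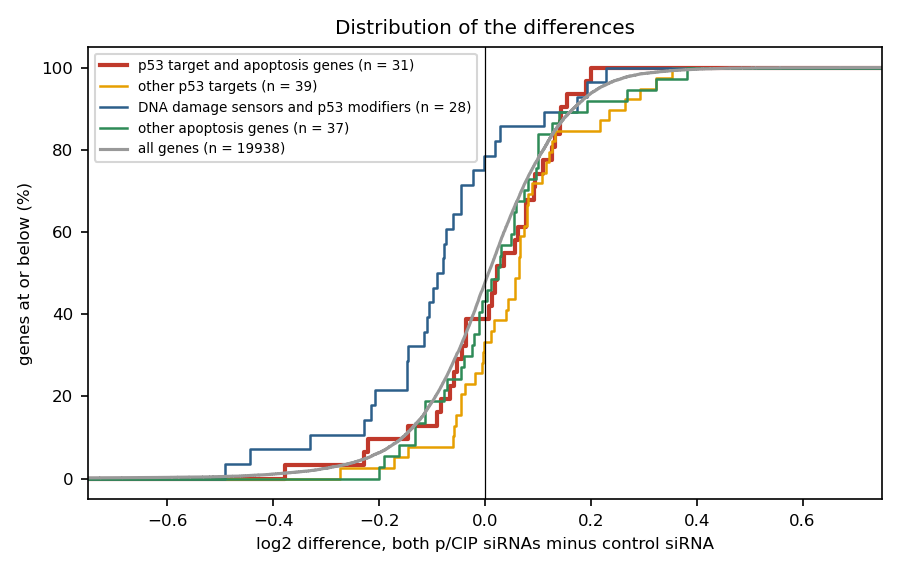
Cumulative share of genes (vertical axis, percent) by log2 difference of both p/CIP siRNAs minus control siRNA (horizontal axis), for the 31 p53 target and apoptosis genes, 39 other p53 targets, 28 DNA damage sensors and p53 modifiers, 37 other apoptosis genes and all 19938 genes. The curve of the 31 genes runs close to that of all genes (medians 0.023 and 0.0065), and that of the damage sensors lies to its left (median -0.085).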

How the data were processed

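Per the submitters' processing notes, the authors used Partek. Which version, and how probes were corrected, combined and normalized, is not stated in the sources used here. The deposited values were taken as log2 values from their range (2.69 to 14.6), since no label states the base, and cover 35556 probe sets on 6 arrays. GEO's platform annotation gave 1 symbol for 21789 probe sets, several for 1621 and none for 12146. The brightest probe set stood for a gene.

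limma 3.58.1 in R 4.3.3 was fitted to all 3 groups with no filter (3 residual and 3.84 prior degrees of freedom), two-sided, with Benjamini-Hochberg adjustment over 19938 genes. The fit and the motif search were tested on simulated data. Precision is limited by the number of arrays. The members, the lists and the rules were chosen with earlier results of these data known. Genes named were all members, Ncoa3 and the 3 genes of smallest p in each further list. Also given are Pou5f1, genes of the lists called with the replicate block, and the stem cell markers at an unadjusted p under 0.05.

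Deviations of same-numbered arrays correlated at 0.461 between siRNA 1 and siRNA 2, 0.464 between siRNA 1 and control and 0.407 between siRNA 2 and control. With 2 numbers this check is weak and the labels name no shared culture or day, so the fit without the replicate block is the main one. Alternatives were the replicate block, a block by array code, quantile normalization, aligned medians, omission of dim genes, all probe sets, averaged probe sets, a trended robust prior, an unmoderated model and leaving out each array.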

Additional observations from a re-analysis of the deposited data

Results flagged for a closer look

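Trp53inp1 and Mcl1 had siRNA arrays on opposite sides of the controls. For Trp53inp1, siRNA 2 minus siRNA 1 was 0.39 (standard error 0.0899), with 0.16 for siRNA 2 and -0.23 for siRNA 1 against control. For Mcl1, siRNA 2 minus siRNA 1 was 0.21 (standard error 0.0771), with 0.05 for siRNA 2 and -0.16 for siRNA 1 against control. The test of the difference between the siRNAs did not pass for either (limma adjusted p = 0.481 and 0.718, and 0.173 and 0.261 with the replicate block). This pattern was seen in 2 of the 31 members (6.45%) and in 2.52% of all genes.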

How the results depend on the processing

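The count of called members was 0 in all 4 comparisons, and that of the 3 further lists 0 for both siRNAs, under every alternative run, the replicate block included; the blocked fit changed no call of a member. With the array code block the smallest adjusted p of a member for both siRNAs was 0.774. Leaving out 1 array, the median difference of the members ran from -0.0036 to 0.064 for both siRNAs. The log2 difference of Ncoa3 was -1.49 with the array code block (adjusted p = 0.157), with all probe sets tested (0.166) and in the unmoderated model (0.366), where it no longer passed, and -1.54 to -1.43 without single arrays. Quantile normalization turned the sign of 3 members, Gtse1 (0.0050), Trp53inp1 (0.0030) and Perp (0.010). Leaving out 1 array turned the sign of Aen (-0.0039 to 0.029), Bcl2 (-0.041 to 0.17), Eda2r (-0.021 to 0.035), Ei24 (-0.15 to 0.021), Fas (-0.0036 to 0.12), Mdm4 (-0.018 to 0.064), Plk2 (-0.044 to 0.081) and Trp53inp1 (-0.080 to 0.0087) at least once; none of these was called, and the cause was not tested. For siRNA 1, the count of 9 members at an unadjusted p under 0.05 was 12 with the replicate block. It was also 12 after quantile normalization, without dim genes or with the trended robust prior, and 5 with the array code block. For siRNA 2 the count of 0 was 4 with the replicate block. This check was added after seeing the data. The share of all genes at that threshold is not given for these settings or for fits without single arrays. Whether the counts of members follow it was thus not tested. With the replicate block, the share of all genes called for siRNA 1 also rose, from 0.0702% to 1.21%.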

Other observations

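Part of the spread followed the replicate number, in these genes as in all genes. In all 3 treatments the replicate 2 array was above the replicate 1 array for 11 of the 31 members (35.5%, and 28.5% of all genes): Btg2, Gadd45b, Gadd45g, Phlda3, Polk, Pmaip1, Bcl2l11, Bcl2, Bcl2l1, Fas and Casp9. It was below it for 5 members (16.1%, and 21.4% of all genes): Gadd45a, Zmat3, Sesn1, Bak1 and Ei24. For Gadd45b, replicate 2 minus replicate 1 was 0.40 with siRNA 1, 0.22 with siRNA 2 and 0.12 with control siRNA. For Sesn1 it was -0.39 with siRNA 1, -0.09 with siRNA 2 and -0.37 with control siRNA. Both siRNAs minus control was 0.14 for Gadd45b and -0.38 for Sesn1.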
